A study of Mus musculus with 14 samples.

Results

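The junction genes of the blood-testis barrier examined here are the claudins Cldn3, Cldn5 and Cldn11, occludin (Ocln), ZO-1 (Tjp1), the immunoglobulin-like adhesion genes Jam2 and Cxadr, N-cadherin (Cdh2) and connexin 43 (Gja1). They were chosen by name: every non-control probe of the array whose gene name equals 1 of these symbols was taken. This gave 16 of 41174 probes for 9 of 27962 gene names. Cxadr and Cdh2 had 3 probes each, Ocln, Tjp1 and Jam2 had 2 each, and Cldn3, Cldn5, Cldn11 and Gja1 had 1 each. Total RNA of whole testis from C57BL/6 mice was hybridised to Agilent single-colour arrays, 1 sample to an array. The 4 groups were 4-week-old Glis3KO2 (n = 3), 4-week-old WT (n = 3), 1-week-old Glis3KO2 (n = 4) and 1-week-old WT (n = 4). Glis3KO2 is a line with knocked-out Glis3, the gene of a Krüppel-like zinc finger transcription factor, and the mice received no treatment. The sample labels give the older age as 4 weeks, while the series' design text gives 3 weeks; the sample labels are followed. The labels do not say that replicates are separate animals, so p-values measure the spread between these samples, which may be technical.

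The blood-testis barrier is formed between neighbouring Sertoli cells, the somatic cells that nurse the germ cells, near the base of the seminiferous tubule. It combines tight junctions, adhesion belts with bundled actin (the ectoplasmic specialization) and gap junctions, and it closes during the first wave of spermatogenesis in young males. Claudins and occludin span the membrane at tight junctions, ZO-1 ties them to actin, N-cadherin carries adhesion, and connexin 43 forms channels between Sertoli cells and towards germ cells.

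All values below are log2 processed signals relative to the array's 75th percentile, so a level of 0 is that percentile, and a level can be compared between arrays for 1 probe but not between probes. A gene was counted by its brightest probe, and a difference was called at an adjusted p under 0.05 from limma, a linear model with moderated variances, with Benjamini-Hochberg adjustment over all probes tested. Between 74.3% and 86.6% of spots were well above background on the 14 arrays, and no spot of the 9 genes was saturated. The Glis3 probe was well above background on 0 of 4 arrays from 1-week Glis3KO2 testes and 4 of 4 from 1-week WT testes, at −8.04 ± 0.84 and −4.87 ± 0.18 (SD). By the processed signal its level was at least 4.25-fold lower in 1-week Glis3KO2 testes (limma adjusted p = 0.0053). With normexp background and quantile normalization the difference was only −0.56 (adjusted p = 0.0214), so its size depends on the background treatment. The call was lost on slide 1 alone (adjusted p = 0.0575) and on slide 2 alone (adjusted p = 0.109). At 4 weeks it was not well above background in either genotype, and where the disruption lies is not given in the sources used here, so the probe does not check the 4-week labels. Among cell type markers, the 16 Sertoli cell genes were well above background on all 14 arrays.

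At 4 weeks, 8 of the 9 junction genes rose in Glis3KO2 testes relative to WT, and Cldn3 did not pass the test. The differences of the 8 ran from 0.54 for Cdh2 to at least 4.58 for Cxadr, whose WT signal was at background, with a median of 1.48 over the 9. Of the 31382 probes tested at this age 69.4% were called, 35.6% higher and 33.8% lower, with a median of 0.05 and quartiles of −0.92 and 0.97. The count of higher genes depended on what the arrays were scaled to: relative to the mean of the 16 Sertoli cell markers, a scaling added after seeing the data, 3 rose (Cldn11, Ocln and Cxadr), 4 fell (Cldn3, Cldn5, Tjp1 and Cdh2), and Jam2 and Gja1 were not called. These counts are by brightest probes, of which that of Cxadr was at background in WT testes. By that scaling 82.8% of all probes were called, and only 5.61% of those calls were higher. In whole testis, fewer cells of a type and less RNA per cell cannot be told apart, and so neither can more cells and more RNA per cell.

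**Figure D1:**
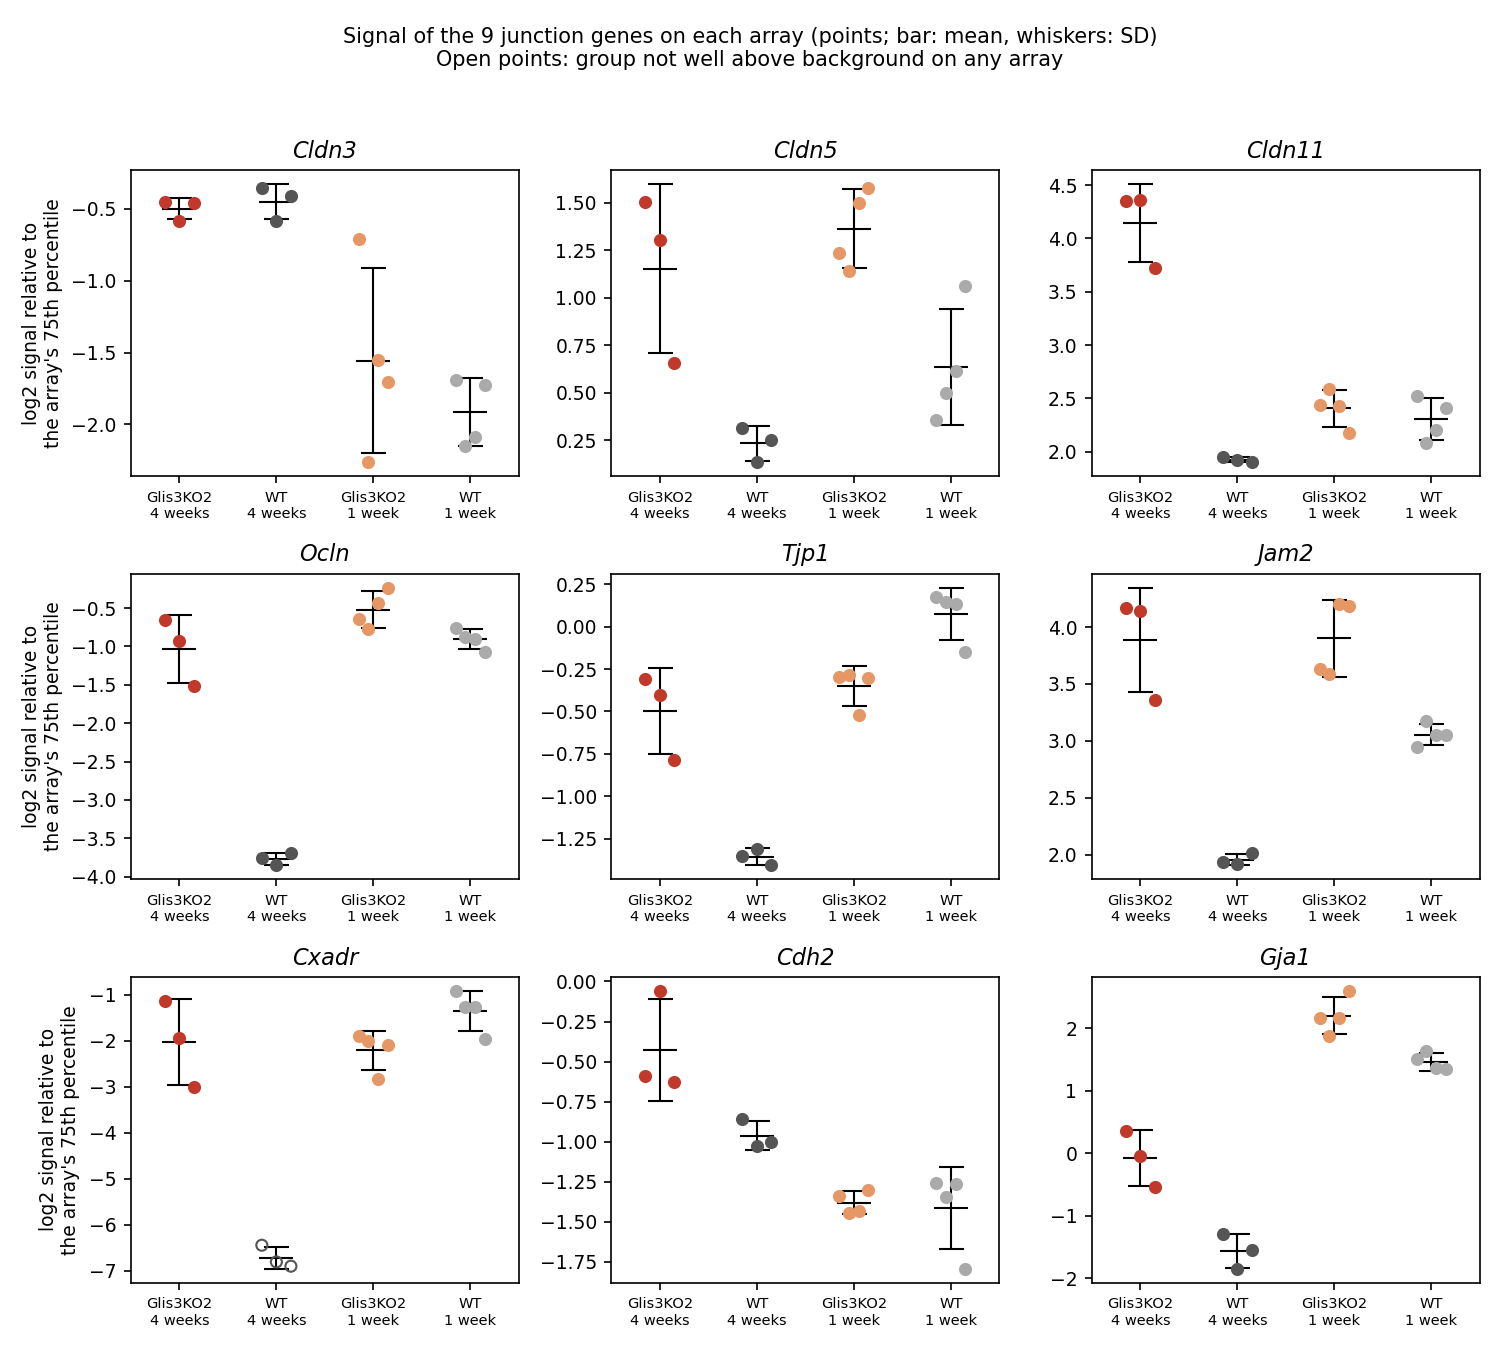
Level of each junction gene's brightest probe on every array, as log2 processed signal relative to the array's 75th percentile (y axis), with the groups in the order 4-week Glis3KO2, 4-week WT, 1-week Glis3KO2 and 1-week WT along the x axis. Points are arrays, bars are means, whiskers are SD, and open points mark the 4-week WT arrays on which Cxadr was not well above background. In 8 panels all 3 arrays from 4-week Glis3KO2 testes lie above all 3 from 4-week WT testes; in the Cldn3 panel they overlap.

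The 3 claudins, which set the permeability of tight junctions, differed among themselves. Cldn11, the main claudin of Sertoli cell tight junctions, had levels of 4.35, 4.36 and 3.72 in 4-week Glis3KO2 testes, against 1.95, 1.92 and 1.91 in 4-week WT testes. The WT arrays were close to each other, and all 3 Glis3KO2 arrays lay far above them. The difference of 2.22 (SE 0.21, 95% interval 1.73 to 2.71) is a 4.65-fold higher signal in Glis3KO2 (limma adjusted p = 0.00053), and it stayed called, at 0.57 (adjusted p = 0.0114), relative to the Sertoli cell markers. Cldn5, a claudin also known as the main one of blood vessel endothelium, had 1.5, 1.30 and 0.65 in 4-week Glis3KO2 testes and 0.32, 0.13 and 0.25 in WT testes. It rose by 0.92 (SE 0.24, 1.89-fold, limma adjusted p = 0.0114) but fell relative to the Sertoli cell markers, at −0.73 (adjusted p = 0.0099). Of the endothelial cell markers, 5 of 10 tested rose at 4 weeks and 0 fell, with a median difference of 0.77, against 35.6% of all probes higher. Relative to the Sertoli cell markers 1 rose and 7 fell (median −0.88, against −1.60 for all probes). Their summed level ran from 24.4 to 35.5 times the array's 75th percentile in 4-week Glis3KO2 testes and from 3.80 to 4.72 in WT testes, and most of that gap lay in Robo4, an endothelial receptor gene with a difference of 4.86. The part of endothelial RNA in the Cldn5 difference was not tested. Cldn3, a claudin of newly formed Sertoli cell tight junctions in mice, had −0.45, −0.59 and −0.46 in 4-week Glis3KO2 testes and −0.35, −0.59 and −0.41 in WT testes. The genotypes overlapped, and the difference was −0.05 with a 95% interval of −0.39 to 0.29 (limma adjusted p = 0.774).

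Occludin had levels of −0.66, −0.93 and −1.52 in 4-week Glis3KO2 testes and −3.75, −3.85 and −3.70 in WT testes. The difference was 2.73 (SE 0.24, 95% interval 2.17 to 3.29), a 6.63-fold higher signal (limma adjusted p = 0.00051), larger than that of 98.4% of all probes tested. The second Ocln probe is dim and lies in other parts of the gene: its 60 bases span 1194 bases of the genome, on the minus strand at chr13:97627594-97628787 (build mm7, per the file headers). It read at least 2.05-fold higher (limma adjusted p = 0.0016), as 0 of 3 arrays from WT testes had it well above background. This probe entered the 4-week test only through the Glis3KO2 arrays, so its direction is no separate support. Tjp1, the scaffold between claudins or occludin and the actin cortex, had −0.31, −0.40 and −0.79 in 4-week Glis3KO2 testes and −1.35, −1.31 and −1.41 in WT testes. The difference of 0.86 (SE 0.17, 1.81-fold, limma adjusted p = 0.0039) was larger than that of 72.1% of all probes tested, and it was −0.79 (adjusted p = 0.0022) relative to the Sertoli cell markers. Its second probe, at chr7:61171235-61171294 on the minus strand, differed by 0.63 (adjusted p = 0.0145). The stretch of transcript that the array reads is shown for 1 probe each of the 4 genes with more than 1 probe tested at 4 weeks, all of which rose, 5′ to 3′:
Ocln second probe: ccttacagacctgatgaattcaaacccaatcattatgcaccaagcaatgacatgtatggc
Tjp1 second probe: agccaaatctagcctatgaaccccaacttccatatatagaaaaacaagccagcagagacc
Jam2 brightest probe: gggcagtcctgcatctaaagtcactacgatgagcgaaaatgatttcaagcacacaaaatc
Cxadr dimmest probe: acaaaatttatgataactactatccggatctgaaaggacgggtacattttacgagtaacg

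Jam2, which encodes a junctional adhesion molecule, had levels of 4.16, 4.14 and 3.36 in 4-week Glis3KO2 testes and 1.93, 1.92 and 2.01 in WT testes. The difference was 1.93 (SE 0.24, 95% interval 1.36 to 2.51, 3.82-fold, limma adjusted p = 0.00084). The bases of this probe span 1544 bases of the genome at chr16:84819851-84821394 on the plus strand. The other Jam2 probe, at chr16:84823058-84823117, had −2.15, −1.65 and −2.33 in 4-week Glis3KO2 testes and −4.97, −5.04 and −4.90 in WT testes, a difference of 2.93 (7.61-fold, limma adjusted p = 0.00043). Both probes separated the genotypes, by different amounts, and relative to the Sertoli cell markers the brightest probe was not called (0.29, adjusted p = 0.185). That scaling lowers every 4-week difference by the same amount. Before it, the other probe's 2.93 exceeded the 2.73 of the brightest Ocln probe, which stayed above 0 by it.

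Cxadr, which encodes the coxsackievirus and adenovirus receptor, an adhesion protein of tight junctions, had the largest difference of the 9. Its brightest probe, at chr16:78334837-78334896, read −1.13, −1.94 and −3.01 in 4-week Glis3KO2 testes, all well above background. In 4-week WT testes it read −6.45, −6.81 and −6.90, and 0 of 3 arrays were well above background. The signal was therefore at least 23.9-fold higher in Glis3KO2 (limma adjusted p = 0.00054), and it remained higher relative to the Sertoli cell markers (adjusted p = 0.00041). The probe at chr16:78356411-78356470 was above background in both genotypes and measured 3.87-fold higher signal in Glis3KO2 (−3.33 ± 0.47 against −5.28 ± 0.23 in WT, SD, n = 3 each; adjusted p = 0.001). The third, at chr16:78326128-78326187, was at least 2.55-fold higher (adjusted p = 0.0011). The 3 probes had the same direction and differed in size. The brightest is assigned to a different RefSeq transcript of Cxadr than the others. The brightest and the third entered the 4-week test only through the Glis3KO2 arrays, which favours a higher direction. The probe above background in both genotypes is free of that limit. Its difference of 1.95 was near the 1.93 of the brightest Jam2 probe, which was not called relative to the Sertoli cell markers.

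Cdh2, the cadherin that joins Sertoli cells to each other and to germ cells, had −0.59, −0.06 and −0.63 in 4-week Glis3KO2 testes and −0.86, −1.03 and −1.0 in WT testes. The groups did not overlap, and the difference of 0.54 (SE 0.19, 95% interval 0.08 to 1.00, 1.45-fold) passed narrowly (limma adjusted p = 0.0418). The call was lost without Glis3KO2 replicate 2 (adjusted p = 0.088), without any 1 WT array (adjusted p = 0.082 to 0.121) and on slide 4 alone (adjusted p = 0.0586), and Cdh2 was lower relative to the Sertoli cell markers (−1.11, adjusted p = 0.00036). Its other 2 probes were too dim at 4 weeks to be tested, and neither was matched to RefSeq. The deposited coordinates of the brightest Cdh2 probe span only 30 bases for its 60 bases, so its placement is less sure. Gja1, which encodes the gap junction protein connexin 43, had 0.35, −0.05 and −0.54 in 4-week Glis3KO2 testes and −1.30, −1.85 and −1.54 in WT testes. The difference of 1.48 (SE 0.26, 95% interval 0.85 to 2.11, 2.80-fold, limma adjusted p = 0.0025) shrank to −0.17 (adjusted p = 0.521) relative to the Sertoli cell markers. Its probe, at chr10:56207239-56207298 on the plus strand, was spotted 10 times on each array.

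**Figure D2:**
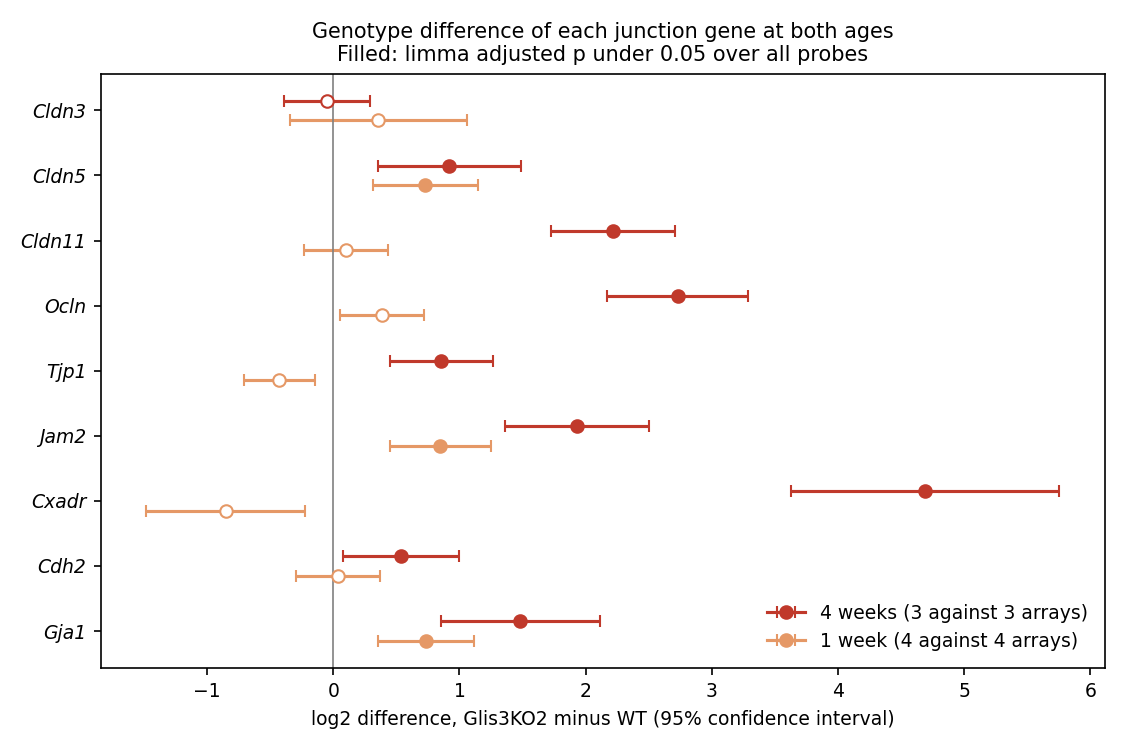
Difference of each junction gene's brightest probe, Glis3KO2 minus WT, on the log2 scale (x axis), with its 95% interval, at 4 weeks (upper point of each pair) and at 1 week (lower point). Filled points passed an adjusted p of 0.05. At 4 weeks 8 genes are filled and right of 0, while at 1 week only Cldn5, Jam2 and Gja1 are filled. Arrays are scaled to their 75th percentile. Relative to the Sertoli cell markers Cldn3, Cldn5, Tjp1 and Cdh2 were called left of 0 at 4 weeks, and Gja1 lay left of 0 without a call.

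The groups of all 8 genes that rose at 4 weeks did not overlap, which was also true of 76.9% of all probes tested. The 4-week arrays lay on 2 slides, and each slide held both genotypes. On slide 4, with 2 arrays of each genotype, the differences were 2.43 for Cldn11, 2.93 for Ocln, 2.18 for Jam2 and 1.57 for Gja1. On slide 5, with 1 array of each and hence no test, they were 1.80, 2.33, 1.44 and 1.31 in the same order. The slide 5 pair holds Glis3KO2 replicate 3, whose levels were the lowest of the 3 for all 8 genes that rose. With slide as a block all 8 calls were kept.

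**Figure D3:**
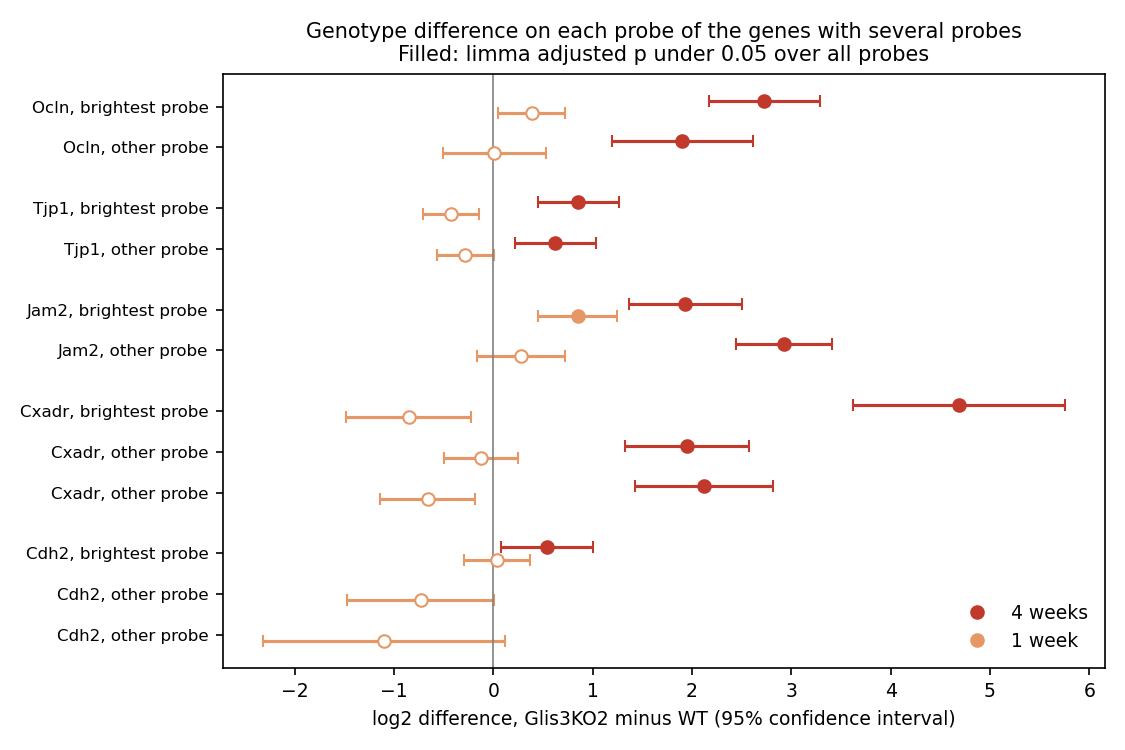
Difference of every tested probe of the 5 junction genes with more than 1 probe (Ocln, Tjp1, Jam2, Cxadr and Cdh2), Glis3KO2 minus WT on the log2 scale (x axis) with its 95% interval, at both ages, with arrays scaled to their 75th percentile. All probes shown lie right of 0 at 4 weeks and are filled, as they passed an adjusted p of 0.05, while at 1 week only the brightest Jam2 probe is filled. The second Ocln probe and the brightest and dimmest Cxadr probes entered the 4-week test only through the Glis3KO2 arrays, which favours a place right of 0.

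Marker genes of several cell types also differed between the 4-week genotypes. The mean level of the 16 Sertoli cell markers was 2.34 ± 0.22 in 4-week Glis3KO2 testes and 0.69 ± 0.07 in WT testes (SD, n = 3 each), and 14 of the 16 rose, with a median of 1.96. Of all probes tested at this age 35.6% were higher and 33.8% lower. All 8 spermatid markers fell, with a median of −2.80 and summed levels of 60.1 to 158 in Glis3KO2 testes and 579 to 849 in WT testes. The transition protein Tnp2, which replaces histones in spermatids, differed by −3.90. All 7 spermatocyte markers tested fell (median −1.40), and 4 of 6 genes expressed across germ cells fell (median −1.50). Of the 8 markers of undifferentiated spermatogonia tested, 2 rose and 1 fell (median −0.04). The part of these marker lists in the junction gene differences was not tested beyond the scaling to Sertoli cell markers. That scaling lowers every 4-week difference by the same amount and puts the median of all probes at −1.60. Cldn11 (0.57), Ocln (1.08) and Cxadr (3.04, with WT at background) stayed above 0 by it, and Jam2 (0.29) and Gja1 (−0.17) were not called. These values are of brightest probes, and that of Cxadr entered the test only through the Glis3KO2 arrays. Before that scaling the Cxadr probe above background in both genotypes stood at 1.95, near the 1.93 of the brightest Jam2 probe. The other Jam2 probe stood at 2.93.

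**Figure D4:**
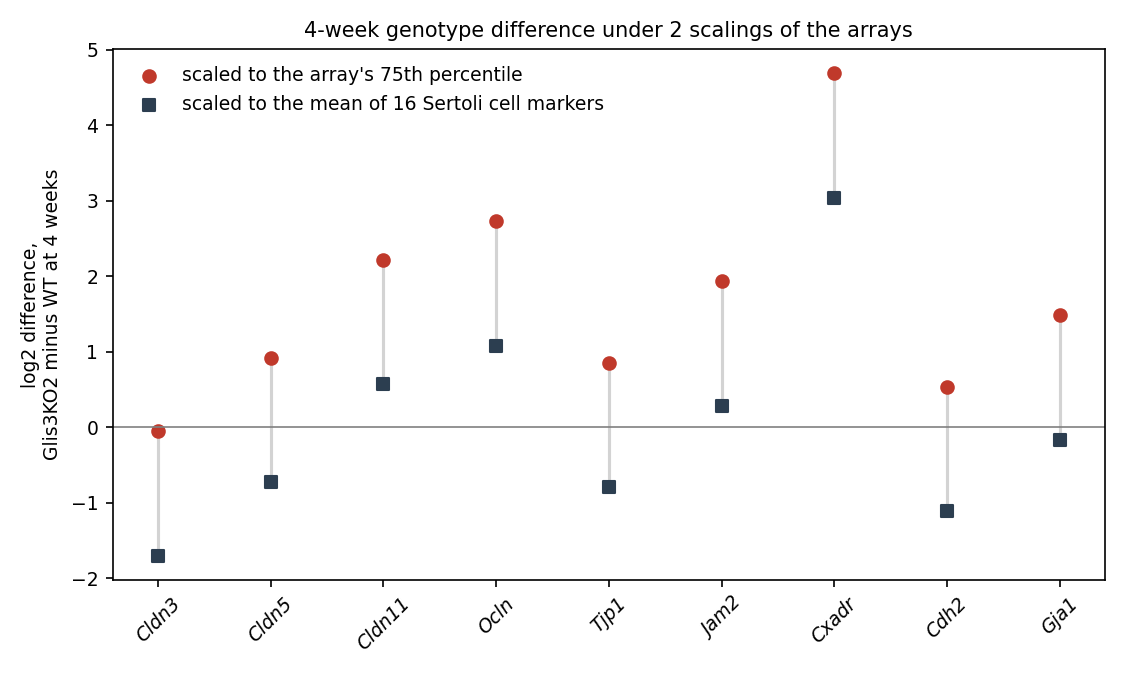
4-week difference of each junction gene, Glis3KO2 minus WT on the log2 scale (y axis), with arrays scaled to their 75th percentile (circles) or to the mean of 16 Sertoli cell markers (squares), joined by a grey line. Ocln, Cldn11 and Cxadr stay above 0 and are called under both scalings, while Cldn5, Tjp1 and Cdh2 are called above 0 under the first and called below 0 under the second. Each point is a gene's brightest probe, and that of Cxadr entered the test only through the Glis3KO2 arrays.

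At 1 week, before most germ cells enter meiosis, the genotypes were closer. Cldn5, Jam2 and Gja1 rose in Glis3KO2 testes and the other 6 genes were not called, against 9.99% of 33710 probes called (3.24% higher, 6.75% lower). The median difference of the 9 was 0.36, and that of all probes was −0.12. Jam2 had 3.63, 3.59, 4.20 and 4.18 in 1-week Glis3KO2 testes and 2.94, 3.17, 3.05 and 3.05 in WT testes. All Glis3KO2 arrays lay above all WT arrays, with a difference of 0.85 (SE 0.17, 1.80-fold, limma adjusted p = 0.0315), while the other Jam2 probe differed by only 0.28 (adjusted p = 0.310). Gja1 had 2.17, 1.88, 2.16 and 2.60 in 1-week Glis3KO2 testes and 1.51, 1.64, 1.36 and 1.34 in WT testes, a difference of 0.74 (SE 0.17, limma adjusted p = 0.0383). Cldn5 had 1.24, 1.14, 1.5 and 1.58 in 1-week Glis3KO2 testes and 0.35, 0.50, 0.61 and 1.06 in WT testes, a difference of 0.73 (SE 0.18, limma adjusted p = 0.045). These groups did not overlap either, as was the case for 27.1% of all probes.

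None of these 3 calls held with slide as a block in limma (adjusted p = 0.149 for Cldn5, 0.117 for Jam2 and 0.116 for Gja1). That fit called 680 probes (2.02%), and 5 of the 9 genes had an unadjusted p under 0.05 in it. Without any 1 of WT replicates 1, 2 and 3 or Glis3KO2 replicate 4, 0 of the 9 were called by limma (5 or 6 at an unadjusted p under 0.05), while 5 were called without WT replicate 4. The within-slide differences kept their sign: Cldn5 differed by 0.88 on slide 1 and 0.36 on slide 2, Jam2 by 0.92 and 0.48, and Gja1 by 0.73 and 0.38. Glis3KO2 replicate 4 was alone on its slide, so the slide block leaves it without weight.

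Tjp1 and Cxadr had levels below WT at 1 week, against their direction at 4 weeks. Tjp1 had −0.30, −0.28, −0.52 and −0.30 in 1-week Glis3KO2 testes and 0.18, 0.15, 0.14 and −0.15 in WT testes. The groups did not overlap, on either Tjp1 probe, but the difference of −0.43 (95% interval −0.71 to −0.15) was not called (limma adjusted p = 0.0576). Cxadr had −1.91, −2.01, −2.83 and −2.09 in 1-week Glis3KO2 testes and −0.92, −1.27, −1.27 and −1.96 in WT testes, a difference of −0.85 (95% interval −1.48 to −0.23, limma adjusted p = 0.0715). The other Cxadr probes differed by −0.66 (adjusted p = 0.0701) and −0.13 (adjusted p = 0.578). Without WT replicate 4 both genes were called lower (Tjp1 −0.50, adjusted p = 0.0363, and Cxadr −1.06, adjusted p = 0.0336). Both were also called lower relative to the Sertoli cell markers (Tjp1 −0.86, adjusted p = 0.0054, and Cxadr −1.28, adjusted p = 0.0127), by which the median of all probes was −0.55. Ocln was 0.39 apart (adjusted p = 0.103), and 0.01 on its second probe (adjusted p = 0.981). Cldn11 was 0.10 apart, with a 95% interval of −0.23 to 0.43 (adjusted p = 0.619). Cldn3 had −0.71, −2.26, −1.55 and −1.71 in 1-week Glis3KO2 testes, a wide scatter, and −1.69, −2.15, −2.09 and −1.73 in WT testes (adjusted p = 0.407). Cdh2 differed by 0.04 (adjusted p = 0.867), while its other 2 probes, both dim, read −0.73 (adjusted p = 0.142) and −1.10 (adjusted p = 0.170).

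The 1-week testes also differed in other markers. The mean of the Sertoli cell markers was 2.71 ± 0.10 in 1-week Glis3KO2 testes and 2.28 ± 0.02 in WT testes (SD, n = 4 each), and 7 of 16 rose. Of all probes tested at this age 3.24% were higher and 6.75% lower. All 8 markers of undifferentiated spermatogonia fell, with a median of −2.23, among them Pou5f1 (−2.75), a pluripotency and germ cell transcription factor. The part of these shifts in the 3 junction calls was not tested beyond the scaling, by which Jam2 was 0.42 higher (adjusted p = 0.0463) and Cldn5 and Gja1 were not called.

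The genotype difference itself was then compared between ages in 1 model of the 14 arrays. It was greater at 4 weeks than at 1 week for 5 of the 9 genes, against 51.9% of 35144 probes called (31.1% higher, 20.8% lower), with a median of 1.09 over the 9 and 0.29 over all probes. The excess was 5.54 for Cxadr (at least 5.43, limma adjusted p = 2.52e-05), 2.34 for Ocln (adjusted p = 6.01e-05), 2.12 for Cldn11 (adjusted p = 6.14e-05), 1.28 for Tjp1 (adjusted p = 0.00031) and 1.09 for Jam2 (adjusted p = 0.0095). For Gja1 it was 0.75 (adjusted p = 0.0629), for Cdh2 0.50 (adjusted p = 0.0979), for Cldn5 0.19 (adjusted p = 0.627) and for Cldn3 −0.41 (adjusted p = 0.404), so a different response at the 2 ages was not shown for these 4 by their brightest probes. Other probes gave other sizes. For Cxadr they read 2.08 (above background in both genotypes, limma adjusted p = 0.00023) and 2.78 (at least 2.01, adjusted p = 0.00012). The other Jam2 probe read 2.65 (adjusted p = 4.58e-05), that of Ocln 1.89 (at least 1.03, adjusted p = 0.0016) and that of Tjp1 0.91 (adjusted p = 0.0028). The other 2 Cdh2 probes were called higher, at 1.70 (at least 0.99, adjusted p = 0.0119) and 2.21 (adjusted p = 0.0183). Both were dim, the first at background in 4-week WT testes and the second in both 4-week genotypes, so their sizes are uncertain. Gja1 passed with slide as a block (adjusted p = 0.0102), and the call of the brightest Jam2 probe was lost with median scaling (0.75, adjusted p = 0.0858). Relative to the Sertoli cell markers, and by brightest probes, Cxadr (4.32), Ocln (1.12) and Cldn11 (0.90) kept the excess, and Tjp1 (0.06) and Jam2 (−0.13) were not called. Cldn3 (−1.62, adjusted p = 0.0049), Cldn5 (−1.03, adjusted p = 0.0040) and Cdh2 (−0.72, adjusted p = 0.010) were called in the other direction by that scaling, which put the median of all probes at −0.93.

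The levels changed with age in both genotypes. The ages were hybridised on separate slides and scanned on separate days, so age and slide cannot be told apart in these values. In WT testes 6 of the 9 genes fell at 4 weeks relative to 1 week and 2 rose, against 81.6% of 35031 probes called (51.7% lower, 29.9% higher). Cxadr fell at least 38.2-fold (limma adjusted p = 1.18e-06), Gja1 by 3.02 (adjusted p = 1.57e-06), Ocln by 2.86 (adjusted p = 3.53e-07), Tjp1 by 1.43 (adjusted p = 1.06e-05) and Jam2 by 1.10 (adjusted p = 1.44e-05). The other Cxadr probes fell less, 4.99-fold (adjusted p = 5.64e-06) and at least 5.69-fold (adjusted p = 2.47e-05). The other Jam2 probe fell more, 8.31-fold (adjusted p = 1.28e-06). The other Ocln probe fell at least 3.19-fold (adjusted p = 7.11e-05) and that of Tjp1 1.60-fold (adjusted p = 0.00022). Cldn11 fell by 0.38 (adjusted p = 0.0222), a call lost without any 1 of the 4-week WT arrays. Cldn3 was higher at 4 weeks in WT, by 1.46 (2.76-fold, adjusted p = 5.76e-05). Cdh2 was 0.45 higher by its brightest probe (adjusted p = 0.0262, lost without 4-week WT replicate 1 or 3), while its other 2 probes were lower, at least 1.73-fold (adjusted p = 0.0038) and at least 1.10-fold (adjusted p = 0.0023), so its direction with age is uncertain. The 2 ages in WT did not overlap for any of the 9 genes, as was true of 81.3% of all probes. The median was −1.10 over the 9 and −0.59 over all probes, and relative to the Sertoli cell markers 6 of the 9 lay above 0: Cldn3 (3.06), Cdh2 (2.05), Cldn11 (1.21), Cldn5 (1.19), Jam2 (0.49) and Tjp1 (0.16, not called). By that scaling the median of all probes was 1.01.

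In Glis3KO2 testes Cldn11 (1.74, limma adjusted p = 0.00031), Cdh2 (0.96, adjusted p = 0.0046) and Cldn3 (1.06, adjusted p = 0.0264) rose with the same step in age, and Gja1 fell by 2.28 (adjusted p = 0.00017). That was 4 of 9 genes, near the 50.6% of 32189 probes called (21.8% higher, 28.7% lower). By their brightest probes Cldn3, Cdh2 and Gja1 moved in the same direction as in WT testes, and Cldn11, at −0.38 in WT, in the opposite one. The 2 ages did not overlap for the same 4 genes, against 56.4% of all probes. Cxadr (0.18, adjusted p = 0.751), Jam2 (−0.01, adjusted p = 0.974), Tjp1 (−0.15, adjusted p = 0.556), Ocln (−0.52, adjusted p = 0.121) and Cldn5 (−0.21, adjusted p = 0.510) were not called. The Cldn3 call was lost without any 1 of the 4-week Glis3KO2 arrays or without 1-week Glis3KO2 replicate 2 or 4 (p up to 0.0728). By group means, Ocln stood at −1.04 in 4-week Glis3KO2, −3.77 in 4-week WT, −0.52 in 1-week Glis3KO2 and −0.91 in 1-week WT testes. The 4-week WT testes were the lowest group, apart from the other 3. By group means they were also the lowest group for Tjp1, Cxadr, Jam2, Gja1, Cldn5 and Cldn11, but not for Cldn3 and Cdh2. Cldn11 had a single high group, the 4-week Glis3KO2 testes. For Cldn3 and the brightest Cdh2 probe every 4-week array lay above every 1-week array, in both genotypes together. For Cldn5, Gja1 and the brightest Jam2 probe the Glis3KO2 arrays lay above the WT arrays of their age at both ages.

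The other junction genes of the array were counted from lists of their kind. Of 20 other tight junction genes tested, 13 rose and 1 fell at 4 weeks, with a median of 1.00, against 69.4% of all probes called (35.6% higher, 33.8% lower). F11r, the JAM-A gene, rose by 2.54 (5.83-fold) and Cgn, which encodes the cytoplasmic linker cingulin, by 2.28 (4.84-fold), while the polarity gene Pals1 fell by 1.43. Cldn4 was at least 4.78-fold higher in Glis3KO2, with WT not above background, and entered the test only through the Glis3KO2 arrays. Relative to the Sertoli cell markers the counts of this list turned to 5 higher and 11 lower, against 82.8% of all probes called, 5.61% of them higher. Of 20 genes of adherens junctions and the ectoplasmic specialization, 15 rose and 3 fell (median 1.38), against the 35.6% and 33.8% of all probes. Relative to the Sertoli cell markers 3 rose and 7 fell. Itga6, an integrin subunit, rose by 2.21, Vcl (vinculin) by 2.12 and Nectin2, which Sertoli cells use to bind spermatids, by 2.01. Nectin3, its partner on spermatids, fell by 2.08, Jup (plakoglobin) by 1.47 and Cdh11 by 1.11, though Cdh11 was at 0.06 as the mean of its probes. Of 9 other gap junction genes tested, 4 rose and 1 fell (median 0.36), and the count that rose is near the 35.6% of all probes higher. Relative to the Sertoli cell markers 0 rose and 7 fell (median −1.29, against −1.60 for all probes). Panx1, which encodes a pannexin channel, was at 1.5. Gja5, an endothelial connexin, was 0.80 higher, a call lost without WT replicate 3 or Glis3KO2 replicate 2. Gjc1 fell by 1.15.

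Of 12 genes known to regulate the barrier, 11 rose and 0 fell at 4 weeks, with a median of 2.22, against 35.6% of all probes higher and 33.8% lower. Relative to the Sertoli cell markers 5 rose and 2 fell. The thyroid hormone receptor gene Thra rose by 3.32, the follicle-stimulating hormone receptor gene Fshr by 2.48 and the cytokine gene Tgfb3 by 2.44. Genes of this list that are also Sertoli cell markers include Fshr, Wt1, Gata4 and Sox9.

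**Figure D5:**
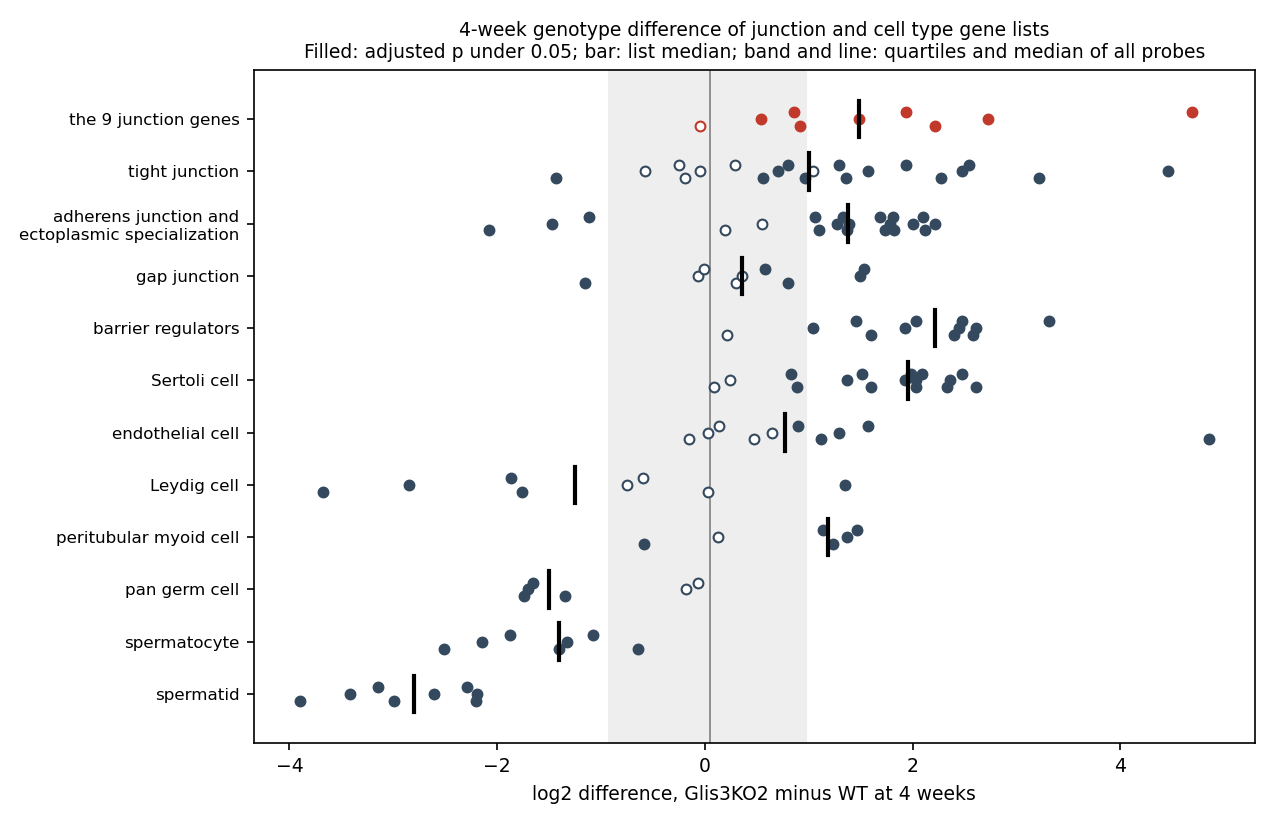
4-week differences of the 9 junction genes and of the gene lists, Glis3KO2 minus WT on the log2 scale (x axis), with arrays scaled to their 75th percentile. Each point is a gene's brightest probe, filled where the adjusted p was under 0.05, the black bar is the list's median, and the grey band and line are the quartiles (−0.92 and 0.97) and median (0.05) of all probes. The junction and Sertoli cell lists lie mostly right of the band's centre and the spermatocyte and spermatid lists left of it. Relative to the Sertoli cell markers the tight junction, adherens junction and gap junction medians turn below 0, and the median of all probes lies at −1.60.

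At 1 week 1 of 20 tight junction genes rose and 3 fell, against 9.99% of all probes called. The split moved with the scaling, to 5 higher and 2 lower with median scaling, 3 and 3 with normexp background, and 0 and 5 relative to the Sertoli cell markers. By the last, 45.7% of all probes were called, 1.23% of them higher. Marveld2 (tricellulin), which seals the corners where 3 cells meet, fell by 1.20 (limma adjusted p = 0.0070), and it stayed called without any 1 array. F11r (0.56, adjusted p = 0.0466), Pals1 (−0.85, adjusted p = 0.0355), Mpdz (−0.93, adjusted p = 0.0449) and, from the adherens list, Nectin2 (0.70, adjusted p = 0.0391) were called in the unblocked fit and lost with slide as a block. Gjb2, a connexin gene, fell by 0.73 (adjusted p = 0.0132, and adjusted p = 0.0548 with slide as a block). Of the 13 barrier regulators tested, 0 were called by limma at 1 week and 3 had an unadjusted p under 0.05.

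For each junction gene above background on all 14 arrays, the 2 genes with the most similar profile were sought among 10581 candidates by the root mean square difference between profiles centred on their own means. Ocln was nearest to Fshr (0.133 on the log2 scale) and Thumpd2 (0.152), Cldn11 to Rhpn2 (0.154) and Gata1 (0.198), and Tjp1 to Map4k3 (0.119) and Rnf44 (0.132). Jam2 was nearest to Unc119 (0.149) and Tspo (0.157), and Gja1 to Serinc5 (0.194) and Cd200 (0.196). Cldn5 was nearest to Cryz (0.153) and Tmem159 (0.171), and Cdh2 to Ifi204 (0.192) and B4galt6 (0.201). Cldn3 had no close partner, with Tbc1d22a at 0.344 and Bcl2l1 at 0.349. Among the 9 themselves the nearest pair was Cldn5 and Jam2 (0.393) and the farthest Cldn3 and Cxadr (2.56). The arrays share slides and scaling, so these are descriptions.

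Promoters of 6 of the 9 genes were matched in RefSeq (build GRCm38.p6), as 7 windows of 250 bases before a transcription start, since Ocln has 2 overlapping starts. The core of the GLIS binding site, TGGGGGGT or its reverse complement ACCCCCCA, was in 0 of the 7, against 1.36% of 32851 promoters of the same length. The related GLI site GACCACCCA, or TGGGTGGTC, was in 0 of the 7, against 0.225% of all. The GC box, GGGCGG or CCGCCC, which binds the SP and KLF zinc finger proteins, was in 5 of the 7 windows, of Cldn3, Cldn5, Ocln (both starts) and Tjp1, against 32.7% of all promoters. No match says only that these letters are not in this window. The windows of the genes with the clearest 4-week differences among those matched, Cldn11 (chr3:31149670-31149919, plus strand, no GC box) and Ocln (chr13:100552719-100552968, minus strand, GC box in capitals), read 5′ to 3′:
Cldn11 promoter: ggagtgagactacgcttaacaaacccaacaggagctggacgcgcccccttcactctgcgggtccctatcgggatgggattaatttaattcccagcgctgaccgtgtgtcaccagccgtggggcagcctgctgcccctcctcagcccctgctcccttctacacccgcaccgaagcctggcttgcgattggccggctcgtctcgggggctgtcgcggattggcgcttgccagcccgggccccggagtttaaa
Ocln promoter: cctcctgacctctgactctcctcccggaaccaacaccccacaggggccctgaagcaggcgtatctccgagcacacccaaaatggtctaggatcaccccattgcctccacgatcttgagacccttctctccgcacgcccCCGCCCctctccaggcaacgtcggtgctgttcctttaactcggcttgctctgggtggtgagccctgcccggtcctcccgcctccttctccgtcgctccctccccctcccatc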

How the data were processed

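Intensities were deposited as 1 scanner file per array, produced by Feature Extraction 9.5 (Agilent), as the submitters' processing notes and per the file headers state. The processed signal, used here, had spatial and multiplicative detrending and surrogate values for spots near background, per the file headers. The deposited series table held the same intensity values on all 45018 spots. Processed signals were averaged over a probe's spots without non-uniform ones and set, as log2, against the array's 75th percentile over non-control probes. Deposited gene names and mm7 coordinates were kept, and 14 of 16 accessions matched RefSeq. A probe was tested if 3 or more arrays of any group had it well above background, with limma 3.58.1 (R 4.3.3) and Benjamini-Hochberg adjustment. A group with 0 arrays above background gives a bound ("at least") against the array's lowest signal above background. From each list, up to 3 called genes a direction and age were named by smallest p; some list genes are not reported here. The fit was tested on simulated data, and other scalings, background corrections, filters, probe rules, blocks and left-out arrays were tried. The members and lists were chosen with earlier results of these data known. The number of arrays, 3 or 4 a group, limits the precision.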

Additional observations from a re-analysis of the deposited data

Results flagged for a closer look

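In 6 of 32 groups of 4 arrays, 1 array lay far from the other 3 relative to the group's range. For a single group chance gives about 1 in 20. These groups share arrays and include several probes of 1 gene, so their count cannot be set against that rate. Only the 1-week groups held 4 arrays, so all were at 1 week by design. The Tjp1 probes set Glis3KO2 replicate 3 apart, at −0.52 on the brightest probe (others −0.30 to −0.28) and −4.45 on the second (others −4.12 to −4.06). WT replicate 4 lay apart for Tjp1 at −0.15 (others 0.14 to 0.18) and for Cdh2 at −1.80 (others −1.35 to −1.26). WT replicate 1 lay apart on 2 Cxadr probes, at −2.68 (others −3.07 to −3.03) and −3.69 (others −4.33 to −4.23).

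By brightest probes, the genotype difference differed between ages, by the interaction test in limma, for Cxadr (5.54, at least 5.43 since 4-week WT was at background), Ocln (2.34), Cldn11 (2.12), Tjp1 (1.28) and Jam2 (1.09). The call of that Jam2 probe was lost with median scaling (0.75, adjusted p = 0.0858). The Cxadr probe above background in both genotypes read 2.08, and the other Jam2 probe 2.65.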

How the results depend on the processing

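The 4-week count of 8 called genes stayed at 7 or 8 without any 1 array, and the counts ran from 5 to 6 for the interaction, 6 to 9 for age in WT and 3 to 4 for age in Glis3KO2. The 1-week count of 3 was unstable: 0 to 5 without 1 array, 1 with no filter, 5 with an intensity trend, 0 with slide as a block, and 0 on slide 1 or slide 2 alone (4 and 0 genes at an unadjusted p under 0.05 in limma). With the replicate number as a block it was also 0 (5 at an unadjusted p under 0.05), as 587 probes were called in all. The numbers did not pair the samples: deviations of same-numbered arrays correlated from −0.19 to 0.12 at 1 week and from −0.32 to 0.15 at 4 weeks. Against 3367 probes called at 1 week, median scaling called 5220, normexp background 5255, no filter 1498, 1 fit of all arrays 5816, an intensity trend 5517, the Sertoli scaling 15390 and fits without 1 array 500 to 5255. By scaling, the share of 1-week calls that were higher was 32.4% (main), 70.8% (median), 50.8% (quantile), 52.6% (normexp) and 1.23% (Sertoli), and the median of all probes −0.12, 0.14, 0.01, 0.01 and −0.55. For the interaction the shares were 60.0%, 44.5%, 55.8%, 52.6% and 11.6%. At 4 weeks the Sertoli scaling gave 5.61% against 51.3%. With age it gave 77.1% against 36.6% in WT and 64.1% against 43.2% in Glis3KO2. The Cdh2 call at 4 weeks was lost with median scaling (adjusted p = 0.088) and quantile normalization (adjusted p = 0.054).

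These differences turned sign, and the cause was not tested. Under the Sertoli scaling at 4 weeks: Cldn5 −0.73, Tjp1 −0.79, Cdh2 −1.11, Gja1 −0.17, Panx1 −0.15, Gja5 −0.85, Pecam1 −0.074, Emcn −0.53, Star −0.30, Tagln −0.18, Myh11 −0.28, Des −0.51, Etv5 −1.09 and Lin28a −1.17; at 1 week: Cldn3 −0.073, Cldn11 −0.33, Ocln −0.044 and Cdh2 −0.39; interaction: Cldn5 −1.03, Jam2 −0.13, Cdh2 −0.72 and Gja1 −0.47. With age it gave Cldn5 1.19, Cldn11 1.21, Tjp1 0.16 and Jam2 0.49 in WT, and Cldn5 0.16, Tjp1 0.23 and Jam2 0.36 in Glis3KO2. As the mean of a gene's probes, Cdh11 was 0.063 at 4 weeks, Cdh2 −0.60 at 1 week and −1.09 with age in WT, and Tjp1 0.039 and Cxadr −0.19 with age in Glis3KO2. At 1 week Cldn3 was −0.32 on slide 2, Cldn11 −0.061 with quantile normalization and −0.085 with normexp, and Cdh2 −0.026 with slide as a block, −0.13 on slide 1 and −0.091 without WT replicate 4. The Cldn5 interaction was −0.15 with median scaling. With age in Glis3KO2, Jam2 was 0.13 (quantile), 0.12 (normexp), 0.082 (replicate block), 0.088 and 0.082 without 1-week replicates 3 and 4, and 0.25 without 4-week replicate 3. Cxadr was −0.028 with median scaling, −0.030 without 1-week replicate 3 and −0.27 without 4-week replicate 1 (up to 0.67, without 4-week replicate 3), and Cldn5 0.040 without 4-week replicate 3. Probes near background limit the precision of Cxadr, Cdh2 and Glis3.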

Other observations

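The peritubular myoid and Leydig cell lists also moved at 4 weeks. Tagln (1.47), Myh11 (1.37) and Des (1.14), contractile genes of the cells that wrap the tubule, rose in Glis3KO2 testes and Actg2 (−0.59) fell, with a median of 1.19 over the 6 genes. Of the 8 Leydig cell genes 4 fell, led by Cyp11a1 (−3.68) and Cyp17a1 (−2.85), enzymes of steroid synthesis, and Star (1.35), which brings cholesterol into mitochondria, rose. Of all probes tested at 4 weeks 33.8% were lower and 35.6% higher. Relative to the Sertoli cell markers Tagln, Myh11, Des and Star lay below 0. At 1 week 0 of the 6 myoid genes were called by limma (0 at an unadjusted p under 0.05), and 4 of 8 Leydig cell genes rose, among them Insl3 (0.64) and Hsd3b1 (0.63), against 3.24% of all probes higher. That count was 2 with quantile normalization and 0 relative to the Sertoli cell markers (median 0.04).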
